A study of Homo sapiens with 18 samples.

Results

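Transcripts of 38 human genes of autophagy and of the lysosome were described in 3 lung cancer cell lines treated with CCS1477, an inhibitor of the bromodomains of the coactivators p300 and CBP. The genes were listed by name, with earlier results of these data known: 3 transcription factors of the MiT/TFE family, 19 genes of the autophagy machinery and 16 genes of the lysosome. All 38 had a gene row in the tables of all 3 lines, out of 14230 genes with a row in every table. The tables of H460, H2023 and ABC-1 held 16424, 18140 and 16910 gene rows. RNA had been taken after 24 h with CCS1477 or with DMSO, the solvent control, with 3 libraries in each of the 6 groups. H460 is labelled a large cell lung carcinoma line, H2023 a squamous cell lung carcinoma line and ABC-1 a lung adenocarcinoma line. The series names H460 and H2023 as lines with active NRF2, the transcription factor of the oxidative stress response, and ABC-1 as wild type. With only 1 wild-type line, NRF2 status and cell line cannot be told apart. The column names give the dose as 5 µM, while the series text gives the same figure in mM. Whether the 3 libraries of a group stem from separate cultures is not stated, and a p-value here covers only their spread, which may be technical.

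In autophagy, a flat membrane grows around cytoplasm or a damaged organelle, closes into an autophagosome and fuses with a lysosome, an acid compartment full of hydrolases. The ULK1 kinase and a lipid kinase complex with BECN1 start the process, a conjugation system attaches ATG8 proteins such as LC3 to the membrane, and receptors tie cargo to those ATG8 proteins. TFEB, TFE3 and MITF are basic helix-loop-helix factors that bind the hexamer CACGTG, and many lysosomal genes carry it near their start within a longer element named CLEAR. When the kinase mTORC1 is inactive at the lysosome, these factors enter the nucleus, so their mRNA level does not give their activity.

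Promoter sequences from RefSeq (GRCh38.p14) were found for 31 of the 38 genes, and the 250 bases before each start site were searched for CACGTG and for the longer palindrome TCACGTGA, which contains it. Both motifs read the same on both strands. CACGTG was in 7.73% and TCACGTGA in 1.04% of the 27305 genes of the promoter table, counting a gene if any of its promoters held it. Among the lysosome genes, 7 of the 10 with a promoter entry held CACGTG and 4 of those 10 held TCACGTGA. Among the autophagy genes, 1 of 18 held CACGTG and 0 of 18 held TCACGTGA, and 0 of the 3 transcription factor genes held either. UVRAG, LAMP2, CTSB, HEXA, ATP6V1A, ATP6V1B2 and ATP6V1H had no entry. The stretches with the matches are printed 5′ to 3′ on the gene's strand, with TCACGTGA or, where only the core is present, CACGTG in capitals. They are shown because 7 of the 10 lysosome genes searched held the motif, against 1 of 18 autophagy genes, and the other 6 lysosome genes were not searched.
LAMP1, chr13:113297027-113297237, plus strand: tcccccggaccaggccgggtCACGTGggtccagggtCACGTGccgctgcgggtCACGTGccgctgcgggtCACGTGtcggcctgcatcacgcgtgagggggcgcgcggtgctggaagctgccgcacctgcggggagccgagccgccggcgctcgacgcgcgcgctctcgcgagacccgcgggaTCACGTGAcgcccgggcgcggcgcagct
MCOLN1, chr19:7522562-7522623, plus strand: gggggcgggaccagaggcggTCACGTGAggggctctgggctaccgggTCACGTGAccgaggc
CTSA, chr20:45891273-45891334, plus strand: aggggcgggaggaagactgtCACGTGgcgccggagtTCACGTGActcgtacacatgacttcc
ATP6V0D1, chr16:67481190-67481237, minus strand: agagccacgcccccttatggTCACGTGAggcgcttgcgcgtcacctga
CLCN7, chr16:1475030-1475095, minus strand: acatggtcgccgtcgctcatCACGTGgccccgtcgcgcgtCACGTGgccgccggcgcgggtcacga
CTSD, chr11:1763949-1763994, minus strand: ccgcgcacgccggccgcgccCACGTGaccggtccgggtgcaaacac
NEU1, chr6:31862922-31862967, minus strand: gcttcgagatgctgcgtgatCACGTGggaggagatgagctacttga
ATG14, chr14:55411831-55411871, minus strand: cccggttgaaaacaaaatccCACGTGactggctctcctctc
LAMP1 held 5 copies of the core, MCOLN1 2 copies of the longer palindrome, and CLCN7 and CTSA 2 copies of the core each. A match describes these letters only and is not a measured binding site.

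Libraries held 26652298 to 33568180 reads in H460, 15352631 to 18261159 in H2023 and 14483979 to 17483292 in ABC-1, recovered from the deposited values, and a gene at 1 CPM has a counting error of 17.3% to 26.3%. CPM, counts per 1e6, is a gene row's share of all reads of its library, times 1e6. Rows named by transcript held 9.19% to 10.7% of reads beside the gene rows. The CCS1477 library of H460 replicate 1 stood apart from the other H460 libraries, with 0.795% of its reads in mitochondrial genes against 1.77% to 2.06% in the other 5. Of 4 epithelial markers, the keratins KRT8 and KRT18 were present in all 3 lines, while in H460 EPCAM was under 1 CPM and CDH1 had no row. In H2023, CDH1 changed by -2.56 ± 0.09 (adjusted p = 2.40e-09) (mean CPM 47.4 with DMSO and 8.11 with CCS1477) and EPCAM by -0.56 ± 0.06 (adjusted p = 9.48e-06). KRT8 and KRT18 fell in H2023 (-0.24 and -0.45), while KRT8, KRT18 and CDH1 rose in ABC-1 (0.45, 0.48 and 0.31). Of 4 squamous markers only TP63 reached 1 CPM in H2023, and of 4 lung adenocarcinoma markers only NKX2-1 did in ABC-1, so most of the defining markers of the labelled tumour types were absent or under 1 CPM. TP63 also reached 1 CPM in ABC-1 (mean 1.35 with DMSO), and KRT5 did in H460 (2.98). TP63 fell in H2023 and ABC-1 (-1.70 and -1.97), and NKX2-1 fell in ABC-1 (-0.94). The summed level of 4 fibroblast markers, nearly all of it COL1A1, was 6.84 to 8.03 CPM with DMSO and 22.6 to 23.6 CPM with CCS1477 in ABC-1, where DCN and PDGFRB had no row. In H460, the same sum was 9.66 to 11.0 CPM with DMSO and 4.43 to 4.95 CPM with CCS1477, with COL1A1 and PDGFRB both called down, and in H2023 it was 6.37 to 7.56 and 5.16 to 7.82 CPM. The 4 leukocyte markers, of which PTPRC and CD68 reached 1 CPM, summed to 25.5 to 30.0 CPM with DMSO and 17.3 to 17.4 CPM with CCS1477 in H2023. Most of that sum was CD68, which fell (-0.84), and PTPRC was not called. The 3 endothelial markers summed to 2.42 to 3.12 and 0.0627 to 0.343 CPM in ABC-1, all of it VWF, as PECAM1 and CDH5 had no row. The part of these markers in the results was not tested.

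With CCS1477, more genes rose than fell in each line among both the autophagy and the lysosome genes, while the MiT/TFE factor mRNAs mostly fell. Fewer than 50% of the autophagy genes rose in H460, and fewer than 50% of the tested lysosome genes in ABC-1. Both parts also held genes that fell, except the autophagy genes in ABC-1. Changes are log2 differences of the deposited values (CCS1477 minus DMSO) with standard errors, and a gene is called at an adjusted p under 0.05 in limma's test over all genes of its table. CPM ratios can differ from these changes, because the deposited values carry the authors' own scaling. Those values also have 4 added to the scaled reads before the log, which makes the changes of genes with few reads smaller. In bulk RNA, fewer cells with a transcript and less of it in each cell cannot be told apart. In H460, 8 of the 19 autophagy genes rose and 2 fell, where 28.2% of all tested genes rose and 27.9% fell (56.1% called in all). In H2023, 12 rose and 4 fell, beside 28.6% and 31.9% of all genes (60.6% in all). In ABC-1, 13 rose and 0 fell, beside 33.5% and 32.6% of all genes (66.1% in all). The median changes of the autophagy genes, for H460, H2023 and ABC-1, were 0.11, 0.26 and 0.38, against medians of 0.00, -0.01 and 0.01 over all tested genes. Of the lysosome genes, 9 rose and 4 fell in H460, 8 rose and 3 fell in H2023, and 7 rose and 1 fell among the 15 tested in ABC-1, where CTSZ was too low for the test. Their median changes were 0.25, 0.16 and 0.05. The genes that rose in every line were ATG2A, CALCOCO2, GABARAPL2, MAP1LC3B, WIPI1 and WIPI2 among the autophagy genes and ATP6V0D1, ATP6V1A, ATP6V1H, LAMP2 and NEU1 among the lysosome genes. CTSD and MITF fell in every line. ATG5, ATG14, CTSA and LAMP1 were called in no line. Libraries of the 2 groups did not overlap for 64.0%, 65.2% and 70.4% of all tested genes in H460, H2023 and ABC-1, so separated groups are common in these data. Without the CCS1477 library of H460 replicate 1, the counts in H460 were 8 up and 3 down for autophagy and 9 up and 4 down for the lysosome.

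**Figure D1:**
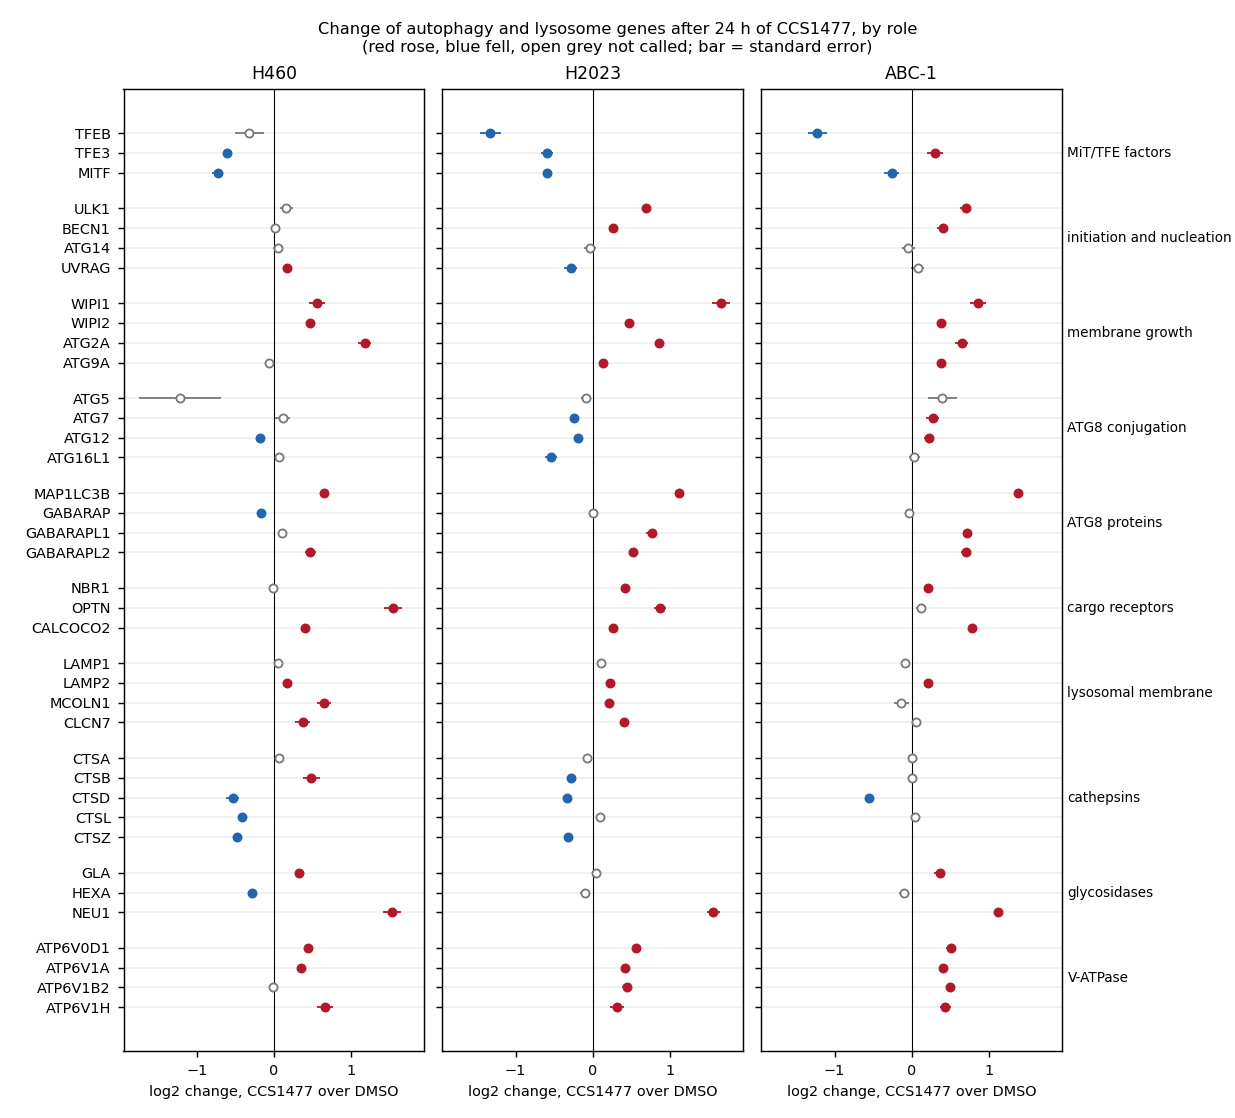
Log2 change (CCS1477 over DMSO, horizontal axis) of each of the 38 genes in H460, H2023 and ABC-1, ordered by role. Points are estimates and bars standard errors; filled red points rose, filled blue points fell and open grey points were not called. NEU1 and MAP1LC3B lie to the right of 0 in all 3 lines and CTSD to the left, and ATG5 in H460, where 1 library had 3.78 CPM, has a long bar.

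The MiT/TFE factors differed in level and in direction. TFEB (ENSG00000112561, chr6:41683978-41736259, GRCh38, minus strand), the best known regulator of lysosome genes, had the lowest level per length of the 3 in every line.

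In H460, TFEB had 2.93, 2.88 and 3.18 CPM with DMSO and 3.22, 2.49 and 1.93 CPM with CCS1477, a change of -0.32 ± 0.19 (adjusted p = 0.177). In H2023, TFEB had 9.14, 7.67 and 8.38 CPM with DMSO and 3.45, 2.83 and 3.70 CPM with CCS1477, a change of -1.33 ± 0.14 (adjusted p = 1.07e-05). In ABC-1, TFEB had 10.3, 13.0 and 11.5 CPM with DMSO and 4.98, 5.03 and 4.95 CPM with CCS1477, a change of -1.22 ± 0.12 (adjusted p = 4.26e-06). TFEB thus fell in H2023 and ABC-1 with no overlap between the groups, and in H460, where all 6 libraries lay between 1.93 and 3.22 CPM, it was not called. Without the CCS1477 library of H460 replicate 1, the H460 change was -0.50 with an adjusted p of 0.0359.

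TFE3, the most abundant of the 3 per length of exon in every line, went in opposite directions. In H460, TFE3 had 73.2, 80.4 and 76.3 CPM with DMSO and 56.4, 54.0 and 48.9 CPM with CCS1477, a change of -0.60 ± 0.06 (adjusted p = 9.82e-05). In H2023, TFE3 had 47.8, 43.2 and 49.6 CPM with DMSO and 37.0, 30.0 and 29.7 CPM with CCS1477, a change of -0.59 ± 0.08 (adjusted p = 1.05e-04). In ABC-1, TFE3 had 26.0, 29.5 and 36.2 CPM with DMSO and 40.8, 39.9 and 35.9 CPM with CCS1477, a change of 0.30 ± 0.10 (adjusted p = 0.0239). It fell in both lines with active NRF2 and rose in ABC-1, where the lowest CCS1477 library lay just below the highest DMSO library. The ABC-1 call was lost when DMSO replicate 1 or 2 or CCS1477 replicate 1 or 2 was left out (change 0.18 to 0.29, adjusted p 0.0571 to 0.0958). About 24% of TFE3's reads lay in transcript rows, and with these added the changes were -0.51, -0.40 and 0.40.

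MITF, known from pigment cells, fell in all 3 lines. In H460, MITF had 23.9, 21.6 and 23.3 CPM with DMSO and 13.9, 14.2 and 15.5 CPM with CCS1477, a change of -0.73 ± 0.07 (adjusted p = 7.39e-05). In H2023, MITF had 34.4, 35.05 and 33.7 CPM with DMSO and 22.2, 24.5 and 24.3 CPM with CCS1477, a change of -0.59 ± 0.06 (adjusted p = 1.21e-05). In ABC-1, MITF had 19.7, 16.1 and 19.8 CPM with DMSO and 14.6, 17.4 and 16.3 CPM with CCS1477, a change of -0.26 ± 0.09 (adjusted p = 0.0296). The groups were separate in H460 and H2023 and overlapped in ABC-1, where library totals as the scaling ended the call (-0.20, adjusted p = 0.101), as did leaving out DMSO replicate 1, DMSO replicate 3 or CCS1477 replicate 1 (-0.22, -0.22 and -0.20, adjusted p 0.0926 to 0.113).

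**Figure D2:**
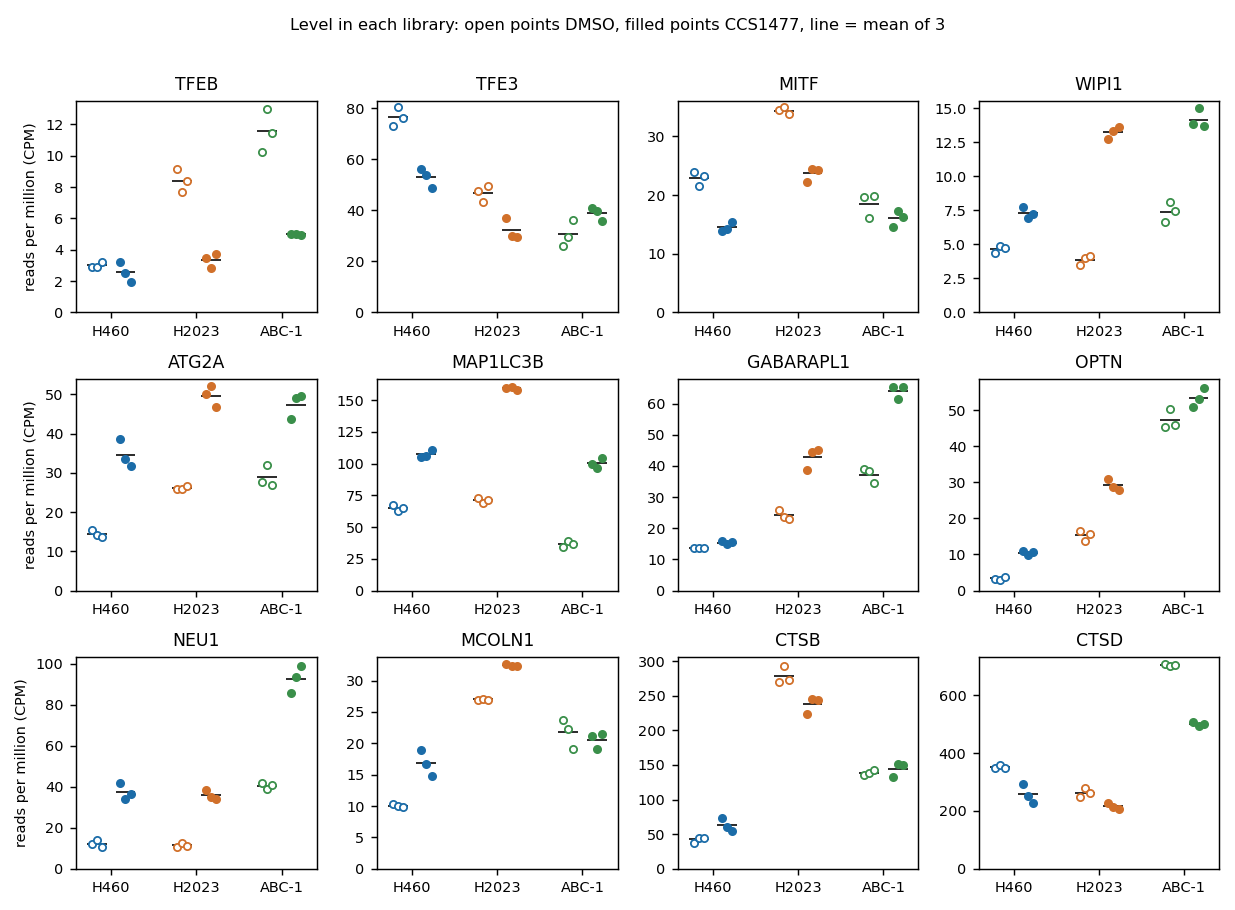
Level in CPM (vertical axes, from 0) of 12 of the genes in each of the 18 libraries, grouped by line. Open points are DMSO libraries, filled points CCS1477 libraries and black lines means of 3. NEU1, ATG2A, MAP1LC3B and WIPI1 are higher in all CCS1477 libraries of each line, and CTSB moves up in H460 and down in H2023.

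Among the genes that start autophagosome formation, ULK1 and BECN1 rose in H2023 and ABC-1. ULK1 encodes the kinase at the head of the pathway. In H460, ULK1 had 56.5, 60.9 and 59.8 CPM with DMSO and 78.8, 70.4 and 60.6 CPM with CCS1477, a change of 0.16 ± 0.09 (adjusted p = 0.15). In H2023, ULK1 had 32.5, 35.8 and 33.0 CPM with DMSO and 59.3, 57.8 and 53.3 CPM with CCS1477, a change of 0.69 ± 0.06 (adjusted p = 2.67e-06). In ABC-1, ULK1 had 27.9, 26.6 and 23.1 CPM with DMSO and 43.2, 44.0 and 44.2 CPM with CCS1477, a change of 0.70 ± 0.07 (adjusted p = 6.69e-06). Each CCS1477 library of H2023 and ABC-1 was above every DMSO library. In H460 ULK1 was called only without CCS1477 replicate 3 (0.26, adjusted p = 0.0141). BECN1, a subunit of the lipid kinase complex, changed by 0.02 ± 0.04 (adjusted p = 0.723) in H460, 0.26 ± 0.04 (adjusted p = 2.97e-04) in H2023 and 0.40 ± 0.07 (adjusted p = 4.62e-04) in ABC-1. ATG14, which directs that complex to autophagosome formation, stayed between 17.5 and 24.1 CPM in all 18 libraries and was called in no line.

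UVRAG, the subunit found in the complex in place of ATG14, was called in opposite directions. In H460, UVRAG had 17.0, 16.9 and 17.3 CPM with DMSO and 20.1, 20.8 and 19.9 CPM with CCS1477, a change of 0.17 ± 0.06 (adjusted p = 0.0293). In H2023, UVRAG had 22.7, 23.5 and 24.8 CPM with DMSO and 21.8, 17.6 and 20.9 CPM with CCS1477, a change of -0.29 ± 0.09 (adjusted p = 0.0128). In ABC-1, UVRAG had 13.6, 15.8 and 15.2 CPM with DMSO and 15.8, 16.3 and 16.8 CPM with CCS1477, a change of 0.08 ± 0.09 (adjusted p = 0.44). The H460 rise was small and lost its call without any 1 of DMSO replicates 1, 2 and 3 or CCS1477 replicate 2 (0.15 to 0.18, adjusted p 0.0616 to 0.0966), with a replicate block (adjusted p = 0.0580) and in a fit over all 18 libraries (adjusted p = 0.0730).

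The genes of membrane growth mostly rose, with 3 of 4 called up in H460 and 4 of 4 in both H2023 and ABC-1. Over all tested genes, 28.2%, 28.6% and 33.5% rose in H460, H2023 and ABC-1. WIPI1 (ENSG00000070540, chr17:68420948-68457513, GRCh38, minus strand) encodes a protein that binds the phosphorylated lipid made by the BECN1 complex. In H460, WIPI1 had 4.35, 4.89 and 4.74 CPM with DMSO and 7.72, 6.95 and 7.21 CPM with CCS1477, a change of 0.56 ± 0.10 (adjusted p = 0.00168). In H2023, WIPI1 had 3.48, 4.00 and 4.16 CPM with DMSO and 12.8, 13.3 and 13.6 CPM with CCS1477, a change of 1.66 ± 0.11 (adjusted p = 4.09e-07). In ABC-1, WIPI1 had 6.63, 8.11 and 7.46 CPM with DMSO and 13.8, 15.0 and 13.7 CPM with CCS1477, a change of 0.86 ± 0.11 (adjusted p = 2.90e-05). The DMSO libraries of the 3 lines lay between 3.48 and 8.11 CPM, and H2023 and ABC-1 reached 12.8 to 15.0 CPM while H460 reached 6.95 to 7.72 CPM.

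ATG2A (ENSG00000110046, chr11:64894546-64917248, GRCh38, minus strand) encodes a lipid transfer protein that feeds the growing membrane. In H460, ATG2A had 15.5, 14.2 and 13.6 CPM with DMSO and 38.7, 33.5 and 31.8 CPM with CCS1477, a change of 1.18 ± 0.09 (adjusted p = 1.70e-05). In H2023, ATG2A had 26.0, 25.8 and 26.8 CPM with DMSO and 50.2, 52.1 and 46.7 CPM with CCS1477, a change of 0.86 ± 0.06 (adjusted p = 2.99e-07). In ABC-1, ATG2A had 27.8, 32.1 and 26.9 CPM with DMSO and 43.6, 49.0 and 49.6 CPM with CCS1477, a change of 0.65 ± 0.08 (adjusted p = 2.95e-05). No CCS1477 library of ATG2A fell within the DMSO range of its line. WIPI2, which recruits the conjugation machinery, rose by 0.47, 0.48 and 0.38 in H460, H2023 and ABC-1. ATG9A, a membrane protein of the seed vesicles, changed by -0.06 ± 0.05 (adjusted p = 0.33) in H460, 0.13 ± 0.05 (adjusted p = 0.0363) in H2023 and 0.38 ± 0.04 (adjusted p = 7.94e-06) in ABC-1. The H2023 call of ATG9A was lost without DMSO replicate 1 or 3 or CCS1477 replicate 1 (0.10 to 0.13, adjusted p 0.0896 to 0.129) and with a replicate block (adjusted p = 0.0505).

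The conjugation genes, whose products attach ATG8 proteins to the membrane, did not share a direction: 0 of 4 rose in H460 and H2023, 1 and 3 fell there, and 2 of 4 rose in ABC-1. Of all tested genes, 28.2% rose and 27.9% fell in H460, 28.6% and 31.9% in H2023, and 33.5% rose in ABC-1. ATG16L1, the subunit that places the conjugating complex on the membrane, fell in H2023. In H460, ATG16L1 had 37.1, 40.1 and 39.5 CPM with DMSO and 46.0, 40.6 and 42.2 CPM with CCS1477, a change of 0.07 ± 0.06 (adjusted p = 0.369). In H2023, ATG16L1 had 44.4, 49.0 and 53.2 CPM with DMSO and 38.2, 32.5 and 33.6 CPM with CCS1477, a change of -0.54 ± 0.08 (adjusted p = 1.35e-04). In ABC-1, ATG16L1 had 23.1, 23.4 and 25.3 CPM with DMSO and 23.6, 25.3 and 27.8 CPM with CCS1477, a change of 0.03 ± 0.07 (adjusted p = 0.712). ATG16L1 groups were separate in H2023 and overlapped in ABC-1.

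ATG7 is the activating enzyme of the system. In H460, ATG7 had 14.1, 17.4 and 14.4 CPM with DMSO and 17.8, 16.3 and 17.9 CPM with CCS1477, a change of 0.11 ± 0.09 (adjusted p = 0.34). In H2023, ATG7 had 28.1, 27.3 and 28.5 CPM with DMSO and 25.5, 24.9 and 23.2 CPM with CCS1477, a change of -0.24 ± 0.06 (adjusted p = 0.00512). In ABC-1, ATG7 had 11.6, 11.5 and 12.9 CPM with DMSO and 14.2, 15.3 and 16.0 CPM with CCS1477, a change of 0.27 ± 0.09 (adjusted p = 0.0166). ATG7 therefore fell in H2023 and rose in ABC-1, both within a narrow range. The rise in ABC-1 was lost without DMSO replicate 1 or CCS1477 replicate 3 (0.24 and 0.23, adjusted p = 0.0545 and 0.0666) and with transcript rows added (0.15, adjusted p = 0.0969).

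ATG12 is joined to ATG5 to form the conjugating complex. In H460, ATG12 had 33.7, 35.3 and 35.7 CPM with DMSO and 33.2, 32.8 and 30.9 CPM with CCS1477, a change of -0.18 ± 0.05 (adjusted p = 0.0162). In H2023, ATG12 had 36.4, 36.0 and 37.1 CPM with DMSO and 33.2, 32.9 and 33.4 CPM with CCS1477, a change of -0.19 ± 0.05 (adjusted p = 0.00665). In ABC-1, ATG12 had 27.4, 28.4 and 28.8 CPM with DMSO and 33.7, 37.1 and 32.6 CPM with CCS1477, a change of 0.23 ± 0.06 (adjusted p = 0.00775). Between 27.8% and 37.4% of ATG12's reads lay in transcript rows, and with these added the falls ended (-0.08, adjusted p = 0.153 in H460, and -0.03, adjusted p = 0.637 in H2023) while the ABC-1 rise grew to 0.36. The H460 fall also ended when libraries were scaled by their totals (-0.11, adjusted p = 0.0987) and without DMSO replicate 2 or 3 (-0.17 and -0.17, adjusted p = 0.0589 and 0.0634).

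ATG5 had reads divided between its gene row and its transcript rows. In H460, ATG5 had 22.7, 23.0 and 26.5 CPM with DMSO and 3.78, 17.0 and 19.5 CPM with CCS1477, a change of -1.21 ± 0.53 (adjusted p = 0.0849). The CCS1477 library at 3.78 CPM is replicate 1, and without it the change was -0.47 (adjusted p = 0.00224). The H460 fall of ATG5 was also called without CCS1477 replicate 3 (-1.63, adjusted p = 0.0345) and in a fit over all 18 libraries (adjusted p = 0.0151). With the reads of its transcript rows, which held 46.8% of ATG5's reads in H460, the 6 libraries lay between 32.0 and 36.1 CPM and the change was -0.12 (adjusted p = 0.120). ATG5 changed by -0.09 ± 0.07 (adjusted p = 0.263) in H2023 and 0.40 ± 0.19 (adjusted p = 0.0888) in ABC-1. In ABC-1 it was called without DMSO replicate 2 (0.57, adjusted p = 0.0321). Transcript rows held 59.3% of ATG5's reads in ABC-1, and with these added the change there was 0.02 (adjusted p = 0.712).

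Among the 4 ATG8 proteins, the small ubiquitin-like proteins that coat the autophagosome membrane, 3 rose in H2023 and ABC-1 and GABARAP did not. The share of all tested genes that rose was 28.6% in H2023 and 33.5% in ABC-1. MAP1LC3B (ENSG00000140941, chr16:87383995-87404779, GRCh38, plus strand) encodes LC3B, the usual marker of autophagosomes. In H460, MAP1LC3B had 67.6, 63.1 and 64.7 CPM with DMSO and 105, 106 and 111 CPM with CCS1477, a change of 0.65 ± 0.04 (adjusted p = 1.20e-05). In H2023, MAP1LC3B had 72.8, 69.2 and 71.2 CPM with DMSO and 159.6, 161 and 158 CPM with CCS1477, a change of 1.11 ± 0.04 (adjusted p = 1.84e-09). In ABC-1, MAP1LC3B had 34.7, 39.0 and 36.9 CPM with DMSO and 99.9, 96.8 and 104 CPM with CCS1477, a change of 1.38 ± 0.06 (adjusted p = 4.15e-09). The DMSO and CCS1477 libraries were far apart in each line relative to their spread. MAP1LC3B has a near-identical copy elsewhere in the genome, MAP1LC3B2, and how the counting treated reads that match both is not given in the sources used here.

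GABARAPL1 belongs to the GABARAP branch of the family. In H460, GABARAPL1 had 13.5, 13.5 and 13.6 CPM with DMSO and 15.8, 14.9 and 15.4 CPM with CCS1477, a change of 0.11 ± 0.06 (adjusted p = 0.161). In H2023, GABARAPL1 had 25.8, 23.7 and 23.0 CPM with DMSO and 38.8, 44.4 and 45.0 CPM with CCS1477, a change of 0.76 ± 0.07 (adjusted p = 5.50e-06). In ABC-1, GABARAPL1 had 39.0, 38.3 and 34.5 CPM with DMSO and 65.4, 61.5 and 65.2 CPM with CCS1477, a change of 0.72 ± 0.06 (adjusted p = 1.25e-06). It rose in H2023 and ABC-1, and in H460 it was called only with scaling by library totals (0.18, adjusted p = 0.0326).

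GABARAPL2 is the other GABARAP-like protein measured. In H460, GABARAPL2 had 22.5, 26.3 and 24.2 CPM with DMSO and 35.3, 34.4 and 36.8 CPM with CCS1477, a change of 0.47 ± 0.07 (adjusted p = 6.35e-04). In H2023, GABARAPL2 had 47.7, 47.7 and 48.0 CPM with DMSO and 69.2, 73.0 and 71.7 CPM with CCS1477, a change of 0.52 ± 0.04 (adjusted p = 2.13e-06). In ABC-1, GABARAPL2 had 37.5, 42.0 and 36.7 CPM with DMSO and 64.6, 67.3 and 65.4 CPM with CCS1477, a change of 0.70 ± 0.06 (adjusted p = 1.91e-06). GABARAPL2 rose in each line with separate groups. GABARAP itself, the most abundant ATG8 mRNA per length in every line, changed by -0.17 ± 0.04 (adjusted p = 0.0113) in H460, 0.01 ± 0.04 (adjusted p = 0.899) in H2023 and -0.04 ± 0.04 (adjusted p = 0.482) in ABC-1, and the H460 fall was not called with scaling by library totals (-0.10, adjusted p = 0.102).

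All 3 cargo receptors among the 38 genes rose in H2023, against 2 of 3 in H460 and 2 of 3 in ABC-1. Beside these counts, 28.6%, 28.2% and 33.5% of all tested genes rose in H2023, H460 and ABC-1. OPTN (ENSG00000123240, chr10:13099449-13138308, GRCh38, plus strand) encodes optineurin, a receptor for damaged mitochondria and for bacteria. In H460, OPTN had 3.19, 2.99 and 3.89 CPM with DMSO and 10.9, 9.97 and 10.7 CPM with CCS1477, a change of 1.55 ± 0.12 (adjusted p = 2.30e-05). In H2023, OPTN had 16.4, 13.7 and 15.7 CPM with DMSO and 31.0, 28.7 and 27.8 CPM with CCS1477, a change of 0.87 ± 0.08 (adjusted p = 3.52e-06). In ABC-1, OPTN had 45.5, 50.3 and 45.8 CPM with DMSO and 50.8, 53.0 and 56.1 CPM with CCS1477, a change of 0.12 ± 0.06 (adjusted p = 0.124). The line with the lowest untreated OPTN, H460, had the largest change, and ABC-1, with the highest untreated level, was called only with scaling by library totals (0.17, adjusted p = 0.0161) or without DMSO replicate 2 (0.18, adjusted p = 0.0165). CALCOCO2 encodes NDP52, a receptor that also recruits ULK1. In H460, CALCOCO2 had 45.6, 47.1 and 50.7 CPM with DMSO and 66.2, 66.3 and 66.9 CPM with CCS1477, a change of 0.40 ± 0.05 (adjusted p = 2.80e-04). In H2023, CALCOCO2 had 65.6, 68.3 and 71.2 CPM with DMSO and 82.9, 84.9 and 87.7 CPM with CCS1477, a change of 0.26 ± 0.05 (adjusted p = 5.74e-04). In ABC-1, CALCOCO2 had 32.4, 32.4 and 31.7 CPM with DMSO and 57.3, 55.4 and 61.5 CPM with CCS1477, a change of 0.79 ± 0.06 (adjusted p = 2.52e-07). CALCOCO2 libraries did not overlap in any line. NBR1, a receptor for ubiquitin-tagged aggregates, changed by -0.01 ± 0.05 (adjusted p = 0.804) in H460, 0.42 ± 0.04 (adjusted p = 1.17e-05) in H2023 and 0.21 ± 0.04 (adjusted p = 0.00155) in ABC-1.

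In the lysosomal membrane, LAMP2 rose in all 3 lines and LAMP1 was called in none, although both are abundant glycoproteins that line the inner face of the membrane. LAMP2 rose by 0.17, 0.22 and 0.21 in H460, H2023 and ABC-1. LAMP1 changed by 0.05 ± 0.05 (adjusted p = 0.426), 0.11 ± 0.05 (adjusted p = 0.0631) and -0.09 ± 0.04 (adjusted p = 0.0542), and other scalings called it up in H2023 (library totals, 0.16, adjusted p = 0.00871) and down in ABC-1 (relative log expression, -0.10, adjusted p = 0.0113). MCOLN1 encodes the calcium channel TRPML1. In H460, MCOLN1 had 10.3, 10.0 and 9.87 CPM with DMSO and 19.0, 16.7 and 14.7 CPM with CCS1477, a change of 0.65 ± 0.10 (adjusted p = 6.38e-04). In H2023, MCOLN1 had 27.0, 27.1 and 27.0 CPM with DMSO and 32.6, 32.3 and 32.3 CPM with CCS1477, a change of 0.21 ± 0.05 (adjusted p = 0.0051). In ABC-1, MCOLN1 had 23.7, 22.4 and 19.1 CPM with DMSO and 21.1, 19.1 and 21.5 CPM with CCS1477, a change of -0.13 ± 0.09 (adjusted p = 0.225). MCOLN1 thus rose in H460 and H2023 and its groups overlapped in ABC-1, where leaving out DMSO replicate 3 gave -0.23 (adjusted p = 0.0311). PNPLA6, at up to 78.9 CPM, overlaps MCOLN1 on the same strand. CLCN7, the chloride and proton exchanger of lysosomes, rose by 0.37 in H460 and 0.41 in H2023 and changed by 0.05 ± 0.05 (adjusted p = 0.371) in ABC-1. Of the 7 lysosome genes whose promoters held CACGTG, NEU1 and ATP6V0D1 (1 copy each) rose in all 3 lines, MCOLN1 and CLCN7 (2 copies each) rose in H460 and H2023, LAMP1 (5 copies) and CTSA (2 copies) were called in no line, and CTSD (1 copy) fell in all 3.

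Of the 5 cathepsins, lysosomal proteases, 1 rose and 3 fell in H460, 0 rose and 3 fell in H2023, and 0 rose and 1 fell among the 4 tested in ABC-1. Among all tested genes, 28.2% rose and 27.9% fell in H460, 28.6% and 31.9% in H2023, and 33.5% and 32.6% in ABC-1. CTSD, the main aspartic protease of lysosomes, fell in each line. In H460, CTSD had 349, 359 and 350.5 CPM with DMSO and 293, 250.4 and 229 CPM with CCS1477, a change of -0.54 ± 0.08 (adjusted p = 7.10e-04). In H2023, CTSD had 249, 279 and 261 CPM with DMSO and 229, 216 and 207 CPM with CCS1477, a change of -0.33 ± 0.05 (adjusted p = 2.12e-04). In ABC-1, CTSD had 708, 703 and 704 CPM with DMSO and 509, 495 and 499.6 CPM with CCS1477, a change of -0.55 ± 0.03 (adjusted p = 6.17e-08). All CTSD groups were separate. AC068580.4, at up to 30.7 CPM, overlaps CTSD on the same strand.

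CTSB, a cysteine protease, was called in opposite directions. In H460, CTSB had 37.4, 44.6 and 45.0 CPM with DMSO and 73.2, 59.7 and 55.0 CPM with CCS1477, a change of 0.49 ± 0.11 (adjusted p = 0.00669). In H2023, CTSB had 269, 293 and 273 CPM with DMSO and 223, 246 and 245 CPM with CCS1477, a change of -0.28 ± 0.05 (adjusted p = 6.62e-04). In ABC-1, CTSB had 135, 138 and 143 CPM with DMSO and 133, 151 and 150.0 CPM with CCS1477, a change of -0.00 ± 0.05 (adjusted p = 0.998). The line with least untreated CTSB, H460, gained it, and the line with most, H2023, lost some. CTSL, another cysteine protease and the most abundant member per length in H460, fell by 0.41 ± 0.05 in H460 (adjusted p = 2.20e-04) and changed by 0.10 ± 0.04 (adjusted p = 0.0561) in H2023 and 0.04 ± 0.06 (adjusted p = 0.529) in ABC-1. CTSZ, a carboxypeptidase, fell by 0.48 in H460 and by 0.32 in H2023. In ABC-1 CTSZ stayed at 0.251 to 0.770 CPM, under the filter. The H2023 fall of CTSZ was not called in a fit over all 18 libraries (adjusted p = 0.133). CTSA, the carboxypeptidase that shields NEU1 in the lysosome, changed by 0.06 ± 0.06 (adjusted p = 0.408), -0.07 ± 0.06 (adjusted p = 0.291) and 0.00 ± 0.04 (adjusted p = 0.966) in H460, H2023 and ABC-1.

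NEU1 (ENSG00000204386, chr6:31857659-31862906, GRCh38, minus strand), the lysosomal sialidase that removes sialic acid from glycoproteins and glycolipids, had the largest rise among the 16 lysosome genes in every line. In H460, NEU1 had 11.9, 14.1 and 10.8 CPM with DMSO and 41.9, 34.0 and 36.3 CPM with CCS1477, a change of 1.53 ± 0.11 (adjusted p = 1.90e-05). In H2023, NEU1 had 10.8, 12.8 and 11.1 CPM with DMSO and 38.6, 35.1 and 33.9 CPM with CCS1477, a change of 1.56 ± 0.08 (adjusted p = 8.13e-08). In ABC-1, NEU1 had 41.9, 38.8 and 41.1 CPM with DMSO and 85.5, 93.6 and 98.9 CPM with CCS1477, a change of 1.13 ± 0.05 (adjusted p = 1.14e-08). Every CCS1477 library lay at or above 33.9 CPM, and the untreated libraries of H460 and H2023 lay between 10.8 and 14.1 CPM. Transcript rows held 51.3% to 53.8% of NEU1's reads, and with these added the changes were 1.59, 1.61 and 1.04. GLA, the alpha-galactosidase deficient in Fabry disease, rose by 0.32 in H460 and 0.36 in ABC-1 and changed by 0.04 ± 0.04 (adjusted p = 0.478) in H2023, and with transcript rows added the rises were 0.15 and 0.20 (adjusted p = 0.0244 and 0.0195). HEXA, the hexosaminidase subunit deficient in Tay-Sachs disease, fell in H460, with a change of -0.28 ± 0.06 (adjusted p = 0.00393), where transcript rows held 30.5% of its reads and with them the change was -0.02 (adjusted p = 0.836). HEXA changed by -0.11 ± 0.06 (adjusted p = 0.172) in H2023 and -0.10 ± 0.06 (adjusted p = 0.196) in ABC-1.

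The V-ATPase, the proton pump that acidifies lysosomes, had 3 of its 4 listed subunits up in H460 and 4 of 4 up in H2023 and ABC-1. Genes that rose made up 28.2%, 28.6% and 33.5% of all those tested in H460, H2023 and ABC-1. ATP6V0D1 encodes a subunit of the membrane sector. In H460, ATP6V0D1 had 129, 130.2 and 132 CPM with DMSO and 192, 184 and 184 CPM with CCS1477, a change of 0.44 ± 0.04 (adjusted p = 3.35e-05). In H2023, ATP6V0D1 had 67.5, 62.6 and 61.8 CPM with DMSO and 97.0, 98.1 and 98.2 CPM with CCS1477, a change of 0.56 ± 0.04 (adjusted p = 1.20e-06). In ABC-1, ATP6V0D1 had 55.0, 62.6 and 56.1 CPM with DMSO and 84.9, 83.6 and 88.7 CPM with CCS1477, a change of 0.51 ± 0.06 (adjusted p = 2.21e-05). The 3 changes of ATP6V0D1 lay within 0.44 to 0.56. ATP6V1H encodes a regulatory subunit of the catalytic sector. In H460, ATP6V1H had 19.1, 24.0 and 18.9 CPM with DMSO and 31.3, 35.2 and 36.6 CPM with CCS1477, a change of 0.66 ± 0.10 (adjusted p = 9.53e-04). In H2023, ATP6V1H had 30.0, 33.1 and 34.5 CPM with DMSO and 43.8, 46.3 and 36.4 CPM with CCS1477, a change of 0.32 ± 0.09 (adjusted p = 0.00956). In ABC-1, ATP6V1H had 24.4, 23.4 and 25.3 CPM with DMSO and 32.9, 32.2 and 38.3 CPM with CCS1477, a change of 0.43 ± 0.07 (adjusted p = 3.07e-04). ATP6V1H groups were separate in each line, and with transcript rows added, which held 25.4% to 29.3% of its reads, the H460 change was 0.35. ATP6V1A, the catalytic subunit, rose by 0.35, 0.42 and 0.40, and ATP6V1B2, its partner in the ring, changed by -0.02 ± 0.04 (adjusted p = 0.745) in H460, 0.44 ± 0.06 (adjusted p = 6.23e-05) in H2023 and 0.49 ± 0.05 (adjusted p = 3.14e-06) in ABC-1.

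Other genes of the same pathways, listed by function, gave a fuller count. Of 35 other autophagy genes tested in each line, 22 rose and 3 fell in H460, 23 rose and 4 fell in H2023, and 28 rose and 2 fell in ABC-1, with median changes in the same order of 0.33, 0.31 and 0.40. Over all tested genes, 28.2% rose and 27.9% fell in H460, 28.6% and 31.9% in H2023, and 33.5% and 32.6% in ABC-1. ATG2B, the second ATG2 lipid transfer protein, rose by 0.83 in H460 (mean CPM 41.4 and 77.3), by 0.84 in H2023 (32.4 and 60.3) and by 0.86 in ABC-1 (32.3 and 61.4). ZFYVE1, which marks the membrane where autophagosomes form, rose by 1.29, 1.14 and 0.93 in the same order. SQSTM1 encodes p62, a cargo receptor that is also a target of NRF2, and rose by 1.04 ± 0.03 (adjusted p = 2.40e-09) in H2023 (mean CPM 1246 and 2658) and by 1.25 ± 0.03 (adjusted p = 1.43e-10) in ABC-1 (212 and 526). In H460, SQSTM1 rose by 0.36 ± 0.06 (adjusted p = 0.00146) from 1623 CPM. The subunits of the HOPS tether, which joins autophagosomes to lysosomes, were put together after their values were seen, and they did not share a direction. In H460, H2023 and ABC-1, VPS16 changed by 0.67, 0.43 and 0.90, VPS39 by 0.45, 0.54 and 0.50 and VPS41 by 0.21, 0.15 and 0.40, all called up. VPS18 changed by 0.73, 0.38 and 0.12, called up in H460 and H2023, while VPS33A changed by -0.19, -0.29 and -0.30, called down in each, and VPS11 changed by -0.06, -0.07 and -0.00, called in none. STX17, the SNARE of that fusion, rose by 0.58 in H460.

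Of the other lysosome genes, 28 rose and 3 fell of 58 tested in H460, 36 rose and 10 fell of 60 in H2023, and 29 rose and 14 fell of 58 in ABC-1, where scaling by library totals left 8 that fell. Called in either direction were 56.1%, 60.6% and 66.1% of all tested genes in these lines (rising alone, 28.2%, 28.6% and 33.5%). Their median changes were 0.16, 0.26 and 0.13. LGMN, the asparaginyl endopeptidase that processes cathepsins, rose by 0.85 in H460 and 0.92 in H2023. NPC2, which carries cholesterol out of the lysosome, rose by 1.04 in H460. Its membrane partner NPC1 fell from 209 to 130.4 CPM in H2023, another line, so these values do not compare the partners. SORT1, a sorting receptor, rose by 1.22 and SMPD1, the acid sphingomyelinase, by 1.40 in H2023. In ABC-1, the pump subunit ATP6V0A1 rose by 1.02, the phospholipase PLA2G15 by 1.19 and the sulfatase IDS by 0.60, and the protease CTSC changed by -0.74 from 169.9 CPM. GALC and PPT1, a galactosylceramidase and a thioesterase, changed by -0.59 and -0.63 in H460.

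Among 24 tested regulators of mTORC1 and AMPK, the kinases that set autophagy by nutrient state, 12 rose and 6 fell in H460, 12 rose and 1 fell in H2023, and 15 rose and 3 fell in ABC-1. These stand beside 28.2% rising and 27.9% falling of all tested genes in H460, 28.6% and 31.9% in H2023 (60.6% called in all), and 33.5% and 32.6% in ABC-1. Rag GTPases, which bring mTORC1 to the lysosome, were among the genes that rose: RRAGA by 0.71 and RRAGC by 0.67 in H460, RRAGD by 1.66 and RRAGC by 0.62 in H2023, and RRAGD by 0.58 in ABC-1. SESN3, a stress-induced inhibitor of mTORC1, rose by 0.43 in H460, by 1.03 ± 0.05 (adjusted p = 2.34e-08) in H2023 (mean CPM 70.2 and 149) and by 1.58 ± 0.05 (adjusted p = 2.42e-10) in ABC-1 (46.8 and 147). SESN1, of the same family, rose by 0.75 in H460 and 0.57 in ABC-1. DDIT4, another inhibitor of mTORC1, fell, with a change of -0.55 in H460, -1.60 ± 0.09 (adjusted p = 7.30e-08) in H2023 (mean CPM 76.9 and 26.3) and -1.86 ± 0.07 (adjusted p = 2.27e-09) in ABC-1 (46.6 and 13.2). PRKAA2, a catalytic subunit of AMPK, changed by -1.04 in H460.

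Untreated levels differed widely between lines for a few hydrolases. The tables were scaled separately, so levels across lines rest on CPM from the recovered reads. The median untreated level in H460, H2023 and ABC-1 was 34.8, 36.5 and 29.6 CPM over the autophagy genes, and 108, 61.8 and 54.6 CPM over the lysosome genes. For 36 of the 38 genes the 3 DMSO libraries of the highest line lay above those of the middle line, and for 31 the middle line lay above the lowest, ATG14 being the gene whose libraries overlapped at both steps. The share of all genes separated in this way is not given here, so the separation is not shown to be particular to these genes. The mean of the highest line was a median 1.96 times that of the lowest over the autophagy genes and 2.68 times over the lysosome genes. CTSZ had 159, 165 and 169.8 CPM in H460, 39.3, 40.3 and 40.4 in H2023 and 0.446, 0.319 and 0.276 in ABC-1, close to absent in the last. CTSL had 872, 898 and 947 CPM in H460, 152, 151 and 143 in H2023 and 40.7, 44.7 and 43.5 in ABC-1. GLA followed the same order, with means of 132, 67.8 and 13.4 CPM. These 3 hydrolases were highest in H460, whereas CTSB was highest in H2023 and CTSA, CTSD, LAMP2 and NEU1 in ABC-1. OPTN ran opposite to them, with means of 3.36, 15.3 and 47.2 CPM in H460, H2023 and ABC-1.

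Per kb of exon, CTSL had the highest level of the 38 genes in H460, at 383 CPM per kb, and CTSD in H2023 and ABC-1, at 84.2 and 226 CPM per kb. TFEB stood at 0.531, 1.49 and 2.05 CPM per kb, well below TFE3 at 17.9, 10.9 and 7.13. GABARAP led the autophagy genes in every line, at 38.3, 35.6 and 60.1 CPM per kb.

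**Figure D3:**
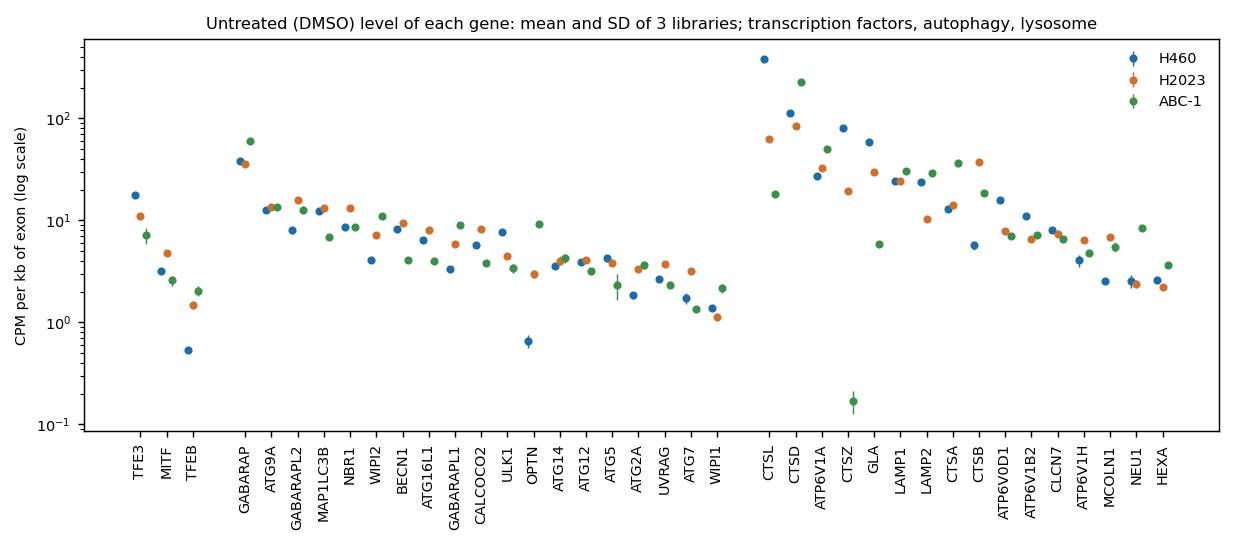
Untreated level of the 38 genes in CPM per kb of exon (log axis), as mean and SD of the 3 DMSO libraries of each line. Transcription factors, autophagy genes and lysosome genes stand in that order from the left. CTSZ and CTSL spread widest between lines, with CTSZ at 0.170 CPM per kb in ABC-1.

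Lines differed in how far some of the genes moved, as they did for many of all tested genes. In a fit over all 18 libraries, the change differed between H460 and H2023 for 18 of the 38 genes (27.3% of all tested genes), between H460 and ABC-1 for 21 (46.5%), and between H2023 and ABC-1 for 17 (41.0%). In both pairs with ABC-1 the count was not far above the share of all genes. The change of TFEB in H460 lay above that in H2023, by 1.01 ± 0.22 (adjusted p = 0.0021), and above that in ABC-1, by 0.90 ± 0.22 (adjusted p = 0.00241). For TFE3 the difference was -0.90 ± 0.14 (adjusted p = 5.60e-05) for H460 minus ABC-1 and -0.89 ± 0.14 (adjusted p = 7.71e-05) for H2023 minus ABC-1. MAP1LC3B rose in the order H460, H2023, ABC-1, the difference being -0.46 ± 0.07 (adjusted p = 5.53e-05) for H460 minus H2023 and -0.27 ± 0.07 (adjusted p = 0.00389) for H2023 minus ABC-1. OPTN ran in the reverse order, with H460 above H2023 by 0.67 ± 0.13 (adjusted p = 7.04e-04) and H2023 above ABC-1 by 0.76 ± 0.13 (adjusted p = 1.25e-04). WIPI1 rose most in H2023, with a difference of -1.10 ± 0.14 (adjusted p = 1.57e-05) for H460 minus H2023 and 0.80 ± 0.14 (adjusted p = 1.88e-04) for H2023 minus ABC-1.

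H460 also stood apart for ULK1, GABARAPL1 and ATP6V1B2, which rose in the other 2 lines. The differences H460 minus ABC-1 were -0.54 ± 0.12 (adjusted p = 0.00101), -0.61 ± 0.09 (adjusted p = 4.28e-05) and -0.51 ± 0.07 (adjusted p = 1.09e-05). The change of MCOLN1 was higher in H460 than in ABC-1, by 0.78 ± 0.12 (adjusted p = 4.58e-05), as was that of CTSB, by 0.49 ± 0.12 (adjusted p = 0.00387). CALCOCO2 rose more in ABC-1 than in H2023, the difference H2023 minus ABC-1 being -0.52 ± 0.07 (adjusted p = 1.25e-05). The changes of WIPI2, ATP6V0D1, ATP6V1A and CTSD were not found to differ between any pair of lines. The same held for ATG14, LAMP2, CTSA, HEXA, ATP6V1H and CTSZ, the last of which was under the filter in ABC-1. Of the 56 differences called, 44 stayed called under every alternative tried and 0 reversed. The difference of ATG5 between H460 and ABC-1 was among the 12 that did not, at -0.14 with transcript rows added (adjusted p = 0.147).

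**Figure D4:**
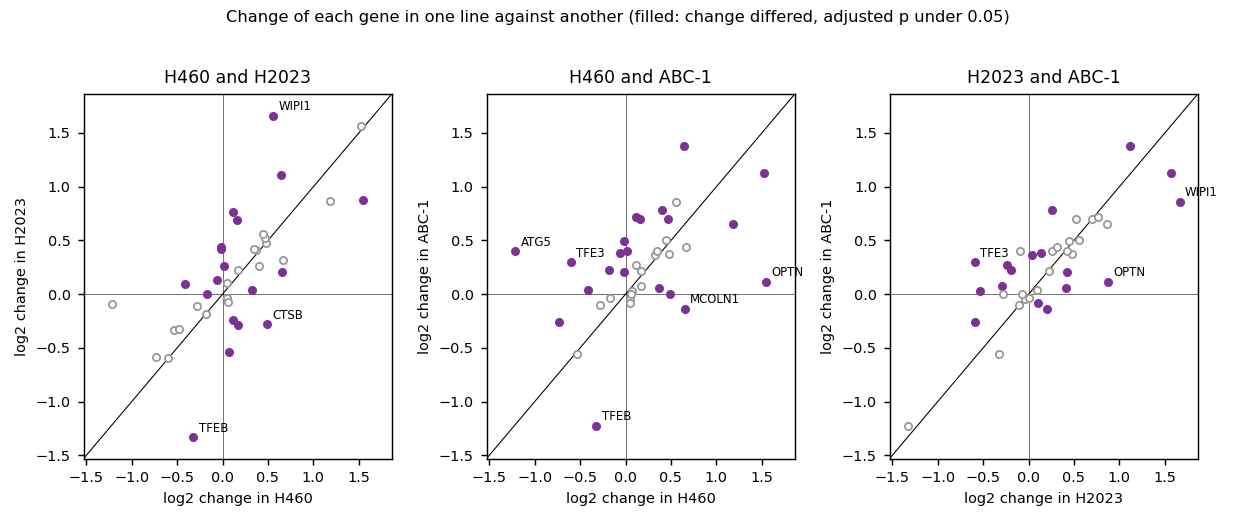
Log2 change of each gene in 1 line (horizontal) against another (vertical) for the 3 pairs of lines, with the line of equal change. Filled points are genes whose change differed between the pair, and those with a difference over 0.75 are named. OPTN lies below the diagonal and MAP1LC3B above it in the panel of H460 and ABC-1.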

How the data were processed

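Total RNA was made into directional libraries and sequenced as paired reads, per the labels' protocols, and GRCh38 is named in the submitters' processing notes. No source used here names the aligner, the counting program or its use of strand. The deposited values are on a log2 scale: tests on the values found each to be the log2 of a library's reads times a constant of that library plus 4, with 2 for a row without reads. Whole reads were recovered from them (100% of values up to 1000 reads within 0.1 of a whole number), and CPM is taken over all recovered reads of the library. Gene rows carry identifiers only, and symbols and exon lengths came from GENCODE 29 on GRCh38. The columns bear the same names in each table, so the line was taken from the table's name.

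The change in each line was tested with limma (3.58.1, trend on mean level, two-sided, Benjamini-Hochberg) on the deposited log2 values of genes at 1 CPM in 3 of 6 libraries. Differences between lines came from a limma fit over 18 libraries. The test within a line was tried on simulated data with known changes, and the fit over 18 libraries was not. The simulation held no outlying library such as the CCS1477 library of H460 replicate 1. Samples were not treated as paired by replicate number: correlations of same-numbered libraries were -0.104 to 0.0973 over the 3 lines. In H2023 these correlations were 0.0340 to 0.0440 and those of unlike numbers were negative. The members and gene lists were chosen with earlier results of these data known. All 38 members were named, with values in every library for the 3 factors, for genes called with a change of 0.5 or more in any line and for genes called in opposite directions. From the other lists, up to 4 genes a line with the smallest p among calls with a change of 0.5 or more were named. Some of these were also given in lines where their change was smaller. The HOPS subunits were added as a set after their values were seen, whatever their call. Reads of genes that overlap on either strand may be shared, as for PSME3 with BECN1, VGLL4 with ATG7, AP3S1 with ATG12, FBXO31 with MAP1LC3B and ARSG with WIPI1. Alternatives were other scalings, limma-voom on recovered reads, filters, log constants, transcript rows added to genes, a replicate block, 1 fit over 18 libraries and leaving out each library.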

Additional observations from a re-analysis of the deposited data

Results flagged for a closer look

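The tests of the differences between lines found that the change after CCS1477 differed for 18 of the 38 genes between H460 and H2023, for 21 between H460 and ABC-1 and for 17 between H2023 and ABC-1 (limma over 18 libraries, adjusted p under 0.05), beside 27.3%, 46.5% and 41.0% of all tested genes. The counts of both pairs with ABC-1 were not far above those shares.

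For 5 genes the test of the difference was met by calls in opposite directions. The share of all genes with such calls is not given here, so opposite calls are not shown to be particular to these genes. TFE3 fell in H460 and H2023 and rose in ABC-1, with differences of -0.90 (H460 minus ABC-1) and -0.89 (H2023 minus ABC-1). UVRAG rose in H460 and fell in H2023, a difference of 0.46. ATG7 fell in H2023 and rose in ABC-1, a difference of -0.51. ATG12 fell in H460 and H2023 and rose in ABC-1, with differences of -0.41 and -0.41. CTSB rose in H460 and fell in H2023, a difference of 0.77. The calls of TFE3 in ABC-1, UVRAG in H460, ATG7 in ABC-1 and ATG12 in H460 and H2023 were each lost under some alternative, and both calls of CTSB were kept under every one.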

How the results depend on the processing

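Of 113 changes of the genes within lines, 79 were called, 69 of these kept their call under every alternative, 10 lost it under at least 1, and 0 changed sign. Of the 34 that were not called, 11 passed the threshold under some alternative and 14 changed sign. Of the counts, the autophagy genes that fell in H460 went from 2 to 0 with library totals and 1 with transcript rows added, and ranged from 1 to 3 over left-out libraries. The lysosome genes that fell in ABC-1 went from 1 to 2 with relative log expression and 2 with transcript rows added, and ranged from 1 to 2 over left-out libraries. The other lysosome genes that fell in ABC-1 went from 14 to 8 with library totals. With transcript rows added, the median untreated level was 39.0, 47.9 and 36.8 CPM over the autophagy genes and 111, 65.1 and 67.7 CPM over the lysosome genes in H460, H2023 and ABC-1, each farther from the value without those rows than the spread of the libraries, as reads are only added.

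The sign changes were all in uncalled values near 0. With library totals they were 0.0131 for ATG9A, 0.0580 for NBR1 and 0.0567 for ATP6V1B2 in H460, 0.0134 for ATG14 in H2023, and 0.0173 for ATG14, 0.0235 for GABARAP and 0.0592 for CTSB in ABC-1. With relative log expression CTSA in ABC-1 was -0.00922. With transcript rows added they were -0.00630 for ATG7 in H460, 0.00391 for ATG5 and -0.00413 for GABARAP in H2023, and 0.00993 for CTSB and 0.0304 for HEXA in ABC-1. Over left-out libraries of H460 the range was -0.0328 to 0.00180 for ATP6V1B2 and -0.0347 to 0.0227 for NBR1. Over left-out libraries of H2023 the range was -0.114 to 0.0158 for ATG14 and -0.00535 to 0.0216 for GABARAP. Over left-out libraries of ABC-1 the range was -0.10 to 0.0525 for ATG14, -0.0302 to 0.0846 for ATG16L1, -0.0189 to 0.035 for CTSA, -0.0289 to 0.0532 for CTSB, -0.00187 to 0.0876 for CTSL and -0.0716 to 0.000167 for GABARAP.

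The replicate block left 7 autophagy genes up and 2 down in H460, 11 up and 4 down in H2023 and 13 up and 0 down in ABC-1. It ended the calls of UVRAG in H460 (adjusted p = 0.0580) and ATG9A in H2023 (adjusted p = 0.0505). The pairing check found each H2023 library closest to its own number, and not so in H460 or ABC-1, as a hint from the data only. With 3 libraries a group, genes near 1 CPM carry the largest counting error.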
